A study of Mus musculus with 2 samples.

Results

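The Schlafen family genes Slfn1, Slfn2, Slfn3, Slfn4, Slfn5, Slfn8 and Slfn9 were taken by symbol from the authors' deposited table, in which all 7 had a row among 23284 genes. The family was picked because Slfn4 leads on the side of Ly6c2, the gene of the Ly6C antigen that names the populations. RNA was sequenced from Ly6Chi macrophages and from Ly6Clo macrophages, with 1 library of each, taken from the infarcted hearts of C57BL/6 mice. The animals had the left anterior descending coronary artery tied off, and cells of both populations were collected on day 3. Both libraries share that injury, strain and day, and how the cells were gated or how many animals gave them is not stated in the labels.

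The value analysed for each gene is the authors' signed statistic, a comparison score of the 2 libraries with no stated unit, together with its rank by size. Another 2 columns hold values of single libraries under codes that no sample label explains, and they were not used. Neither sign could therefore be given to a population, and the negative side is named only by its landmark Ly6c2, at -1.78 and rank 18 in the authors' deposited table. With 1 library per population there is no spread between replicates and no test, and every value below describes those libraries. Sequencing depth was not analysed here. The statistic is not read as a fold change or a level, and a small value may mean a small difference or low abundance. The statistic alone cannot tell these apart, and abundance was not read from the columns left out.

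Schlafen proteins share an N-terminal core domain, and the family is named after the German word for sleep, since its founding member slowed the growth of thymocytes. Many members are induced by type I interferon, which signals through its receptor and the kinases Jak1 and Tyk2 to genes that carry interferon-stimulated response elements (ISREs). Several family members bind or cut transfer RNA and thereby limit translation. Short members hold little beyond the N-terminal domain, intermediate members add a linker domain, and long members add a helicase-like domain. In macrophages the genes are known for shifts in expression during differentiation and activation.

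The members lie in a cluster on mouse chromosome 11, and their promoters differed in the letters they hold. The RefSeq promoter windows of GRCm38.p6, the assembly of mm10, run from 250 bases before to 50 after an annotated start, and all 7 members matched a window (Slfn8 matched 2, of which the outer is shown). Shown first are the windows of Slfn4 and Slfn1, at chr11:83174936-83175235 and chr11:83116570-83116869 on the plus strand, because they share the longest identical run of any pair involving Slfn4. Capitals mark that run of 15 bases, which begins 73 bases before the start used for the window in Slfn4 and 74 in Slfn1. For Slfn4 the start used is 83175186, inside the gene, which begins at 83175172. For Slfn1 the start used is the outer end of the gene. Of 32851 windows, 2 held the whole run on either strand. Its first 11 bases also stand in the window of Slfn2, and its first 9 in that of Slfn3. The run was singled out after the sequences had been read.
Slfn4: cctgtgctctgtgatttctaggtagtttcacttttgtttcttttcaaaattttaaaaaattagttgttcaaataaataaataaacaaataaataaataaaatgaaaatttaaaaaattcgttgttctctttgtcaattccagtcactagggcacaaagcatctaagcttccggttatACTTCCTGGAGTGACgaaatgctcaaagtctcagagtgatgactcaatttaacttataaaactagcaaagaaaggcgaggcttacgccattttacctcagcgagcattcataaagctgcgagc
Slfn1: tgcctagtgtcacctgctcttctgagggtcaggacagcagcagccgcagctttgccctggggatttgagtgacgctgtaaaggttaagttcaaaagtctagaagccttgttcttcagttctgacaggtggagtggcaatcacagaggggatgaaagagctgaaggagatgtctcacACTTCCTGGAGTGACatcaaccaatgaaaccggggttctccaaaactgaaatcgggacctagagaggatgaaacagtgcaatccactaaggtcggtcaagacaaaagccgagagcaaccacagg

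The windows of Slfn9, Slfn8 and Slfn5 are shown because they hold the ISRE core (GAAA, any 2 bases, GAAA), which capitals mark. They lie at chr11:82991781-82992080 and chr11:83020761-83021060 on the minus strand and at chr11:82951852-82952151 on the plus strand. In Slfn9 and Slfn8 the match reads as the reverse complement.
Slfn9: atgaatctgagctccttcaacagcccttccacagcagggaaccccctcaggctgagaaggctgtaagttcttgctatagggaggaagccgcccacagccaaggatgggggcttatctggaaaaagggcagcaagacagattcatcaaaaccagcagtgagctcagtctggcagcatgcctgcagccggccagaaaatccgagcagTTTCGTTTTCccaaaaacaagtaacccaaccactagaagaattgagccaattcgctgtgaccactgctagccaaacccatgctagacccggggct
Slfn8: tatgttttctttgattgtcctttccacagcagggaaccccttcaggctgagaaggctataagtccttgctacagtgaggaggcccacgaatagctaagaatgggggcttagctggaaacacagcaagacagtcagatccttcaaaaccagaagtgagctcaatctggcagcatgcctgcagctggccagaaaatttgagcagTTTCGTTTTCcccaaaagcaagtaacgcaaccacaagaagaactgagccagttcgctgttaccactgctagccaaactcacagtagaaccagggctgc
Slfn5: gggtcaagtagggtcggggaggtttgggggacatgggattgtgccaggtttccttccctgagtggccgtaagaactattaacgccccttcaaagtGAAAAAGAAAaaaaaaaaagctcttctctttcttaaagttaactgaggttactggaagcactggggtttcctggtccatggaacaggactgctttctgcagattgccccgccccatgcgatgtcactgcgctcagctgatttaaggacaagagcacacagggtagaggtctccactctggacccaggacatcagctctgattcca

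The ISRE core was found in 3 of 7 members, and 3.44% of all promoter windows hold it on either strand. Its match began 45 bases before the start used for the window in Slfn9, 48 in Slfn8 and 155 in Slfn5. For Slfn9 and Slfn8 that start is the outer end of the gene. The Slfn5 window begins at 82951852, inside the gene, which begins at 82951349. The bases before that outer start of Slfn5 were not searched. The matches in Slfn9 and Slfn8 have the same letters, in promoters identical at 84.9% of aligned bases, so they are not independent. In Slfn5 the match leads into a run of A bases. The count of 3 is therefore not read as an excess over the share of all windows. No other searched motif was common among the members. The ETS motif GAGGAAG, of the kind bound by the myeloid factor PU.1, stood in Slfn9, and 13.6% of all windows hold it. The interferon-gamma activated site TTCNNNGAA and the NF-kB motif (GGGA, any base, TTTCC) matched in 0 of 7 members, against 8.3% and 0.411% of all windows. The motifs searched did not overlap one another in these windows. The members with an ISRE core did not share a side of the statistic, since Slfn5 was negative, Slfn9 positive and Slfn8 close to 0 in the authors' deposited table. The window of Slfn4, with the most extreme statistic of the family, held 0 matches to any of the motifs. This says only that those letters are not in that window. The run shared by Slfn4 and Slfn1 reads CAGGAAG on the other strand, which differs from the searched ETS motif in its first letter. The windows of Slfn2 and Slfn3 also hold CAGGAAG. Only the exact ETS motif was searched, so near matches were not counted. The Slfn4 window was also the poorest in G and C of the windows searched, at 33.7%, against 49.0% to 53.0% in the windows of the other members.

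Slfn4 stood far from the rest of the family on the side of Ly6c2. Slfn4 is an intermediate member expressed in myeloid cells and induced by interferon and by Toll-like receptor ligands. The gene lies on chromosome 11 from 83175172 to 83190216 and its longest annotated coding sequence has 602 codons. Its statistic was -1.23, with rank 93 of 23284 genes, in the authors' deposited table. On the negative side, 6 of 6903 genes lay further from 0 in the authors' deposited table. This value picked the family, so nothing is read from its size. It was the 1 member at or below -0.5, a bound passed by 0.988% of all genes, and also the 1 member at or below -1, passed by 0.0644% of all genes. Since the members were chosen on this statistic, those shares are given as background only.

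**Figure D1:**
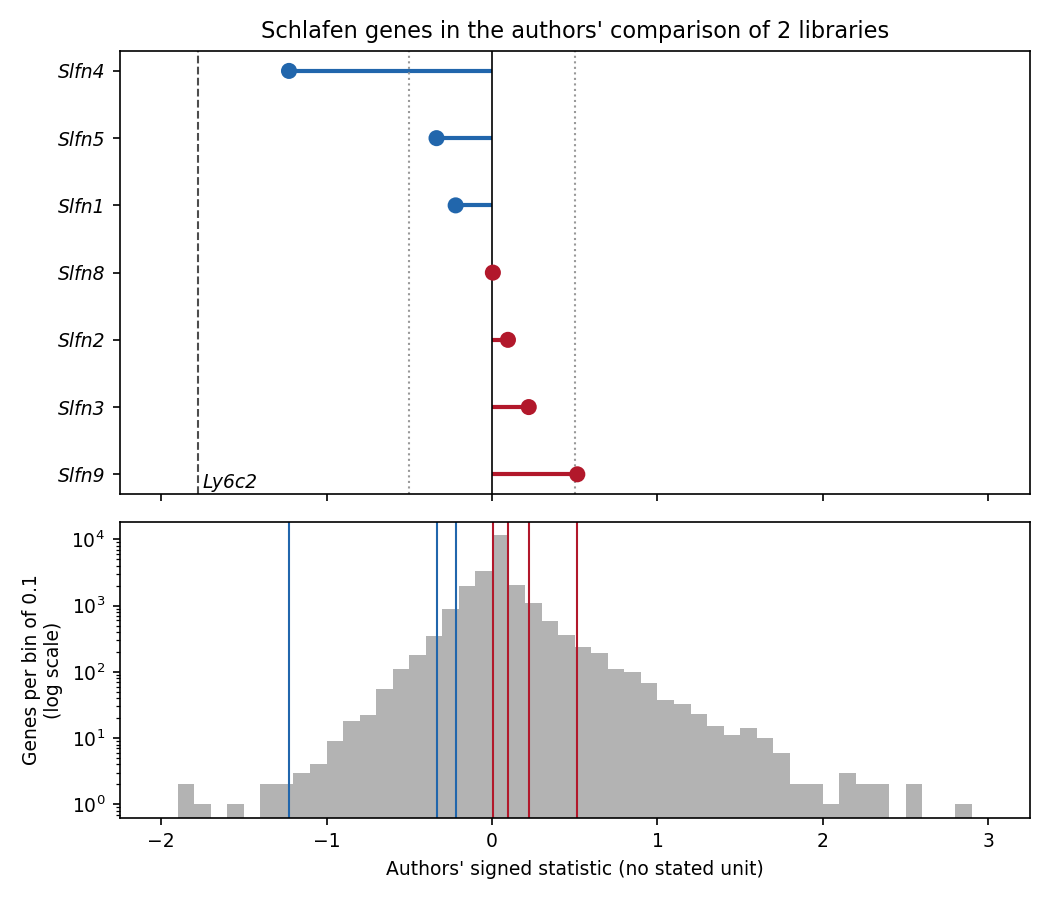
Top, the authors' signed statistic (x axis, no stated unit) of each Schlafen gene, in blue where negative and red where positive, with dotted lines at -0.5 and 0.5 and a dashed line at Ly6c2. Bottom, the number of genes per bin of 0.1 on a log axis for all 23284 genes, with the members as vertical lines and exact zeros in the bin that starts at 0. Slfn4 at -1.23 lies in the thin negative tail, and the other members lie between -0.34 and 0.52.

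Next to Slfn4 in the ranking of the negative side stood Gpnmb, Cd177 and Fabp5 before it and Cd36, Spp1 and Rhov after it. Their places follow from the value of Slfn4 that picked the family, and no theme is read from them. Likeness here is the closeness of 1 statistic from 2 libraries and carries no profile across samples. Gpnmb, a glycoprotein of lysosome-rich macrophages, Cd177, a surface protein of granulocytes and some monocytes, and Fabp5, a fatty acid binding protein, came just before it at -1.56, -1.39 and -1.33 in the authors' deposited table. Just after it came Cd36, a scavenger receptor for oxidised lipids, Spp1, the osteopontin gene, and Rhov, a small GTPase gene, at -1.22, -1.18 and -1.16 in the authors' deposited table. Cd36 differed from Slfn4 by 0.0066 in the statistic.

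The other intermediate member, Slfn3, lay on the opposite side. Slfn3 is known from rodent T cells and from differentiation of the intestinal epithelium. The gene lies on chromosome 11 from 83191330 to 83215154 and codes for 640 residues. It stood at 0.22, with rank 4029, in the authors' deposited table, 1.45 above Slfn4. The genes are direct neighbours on the same strand, 1113 bases apart in the RefSeq annotation, and their coding sequences were identical at 92.3% of aligned bases. Of the stretches of 50 bases in Slfn3 transcripts, 7.39% also occurred in Slfn4 transcripts, while 0 of 3386 stretches of 100 bases were shared with another gene of the cluster. The read length and the handling of reads that fit both genes are not stated in the labels, so a part of the signal of either gene could be counted for the other.

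The short members lay on opposite sides of 0, both under 0.5 in size. Slfn1, the founding member, which slows the growth of T cells when overexpressed, had -0.22, with rank 4090, in the authors' deposited table. Slfn2, which keeps T cells and monocytes quiescent and whose loss of function in the mouse weakens immunity, had 0.10, with rank 8774, in the authors' deposited table. Their coding sequences of 337 and 378 codons were identical at 71.7% of aligned bases. For Slfn1, 17.6% of all genes had a statistic at least as far from 0, and for Slfn2 the share was 37.7%.

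The long members covered both sides. Slfn5, an interferon-induced gene whose human counterpart acts in the nucleus, had -0.34, with rank 2215, in the authors' deposited table. Together with Slfn4, whose value picked the family, it made 2 members at or below -0.25. That bound is passed by 4.66% of all genes, given as background only. Slfn9, on chromosome 11 from 82974316 to 82991830, was the family's highest value at 0.52 and rank 1049 in the authors' deposited table. Slfn8, the closest paralog of Slfn9, had 0.0053, with rank 14933, in the authors' deposited table. Slfn9 was thus the 1 member at or above 0.5, where 3.77% of all genes stand. The Slfn9 and Slfn8 genes both code for 910 residues, are identical at 92.7% of aligned coding bases and at 84.9% of aligned promoter bases, and still differed by 0.51 in the statistic.

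Sequence shared between genes bears on the long members too. Of the 50-base stretches of Slfn9 transcripts, 11.2% also occurred in another gene of the cluster, and for Slfn8 the share was 14.6%. For both, the pseudogene Slfn10-ps held the most of them, at 8.1% of Slfn9 and 10.1% of Slfn8 stretches. Slfn5 shared 0 of 6324 such stretches with the other genes of the cluster. It overlaps an antisense gene instead, Slfn5os, listed under its older symbol 1700003F17Rik, over 9333 bases. That gene had a statistic of exactly 0 in the authors' deposited table. Strand handling is not stated in the labels, so reads from Slfn5 and its antisense partner might not be told apart.

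**Figure D2:**
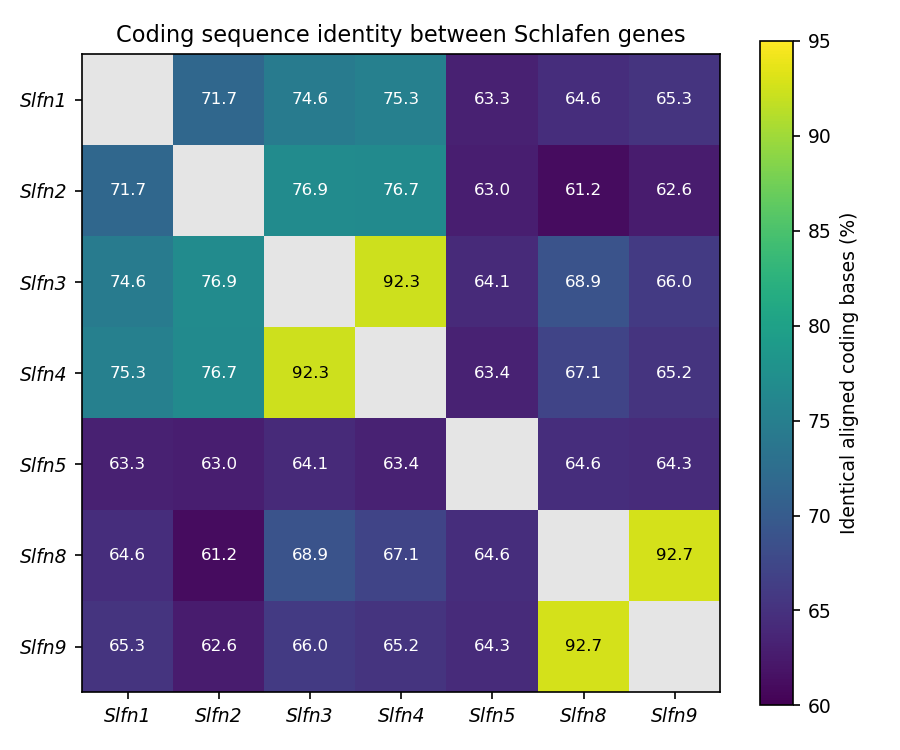
Percent of identical bases among the aligned bases of the longest annotated coding sequence of each pair of Schlafen genes (rows and columns), on a colour scale from 60 to 95. The pairs Slfn8 and Slfn9, at 92.7%, and Slfn3 and Slfn4, at 92.3%, stand out, and Slfn5 is between 63.0% and 64.6% identical to each other member.

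Along the chromosome, neighbouring members did not share a side throughout. The members span 263.8 kb in the order Slfn5, Slfn9, Slfn8, Slfn2, Slfn1, Slfn4 and Slfn3, with Slfn9 and Slfn8 on the minus strand. A single further gene of the table lies wholly inside that span, the pseudogene Slfn10-ps, with -0.17 in the authors' deposited table. The antisense gene Slfn5os begins before the span and reaches 9.332 kb into it. Past the Slfn3 end, AI662270 had -0.15 and Slfn14, listed as Slfn14-ps, had -0.03 in the authors' deposited table. Past the other end, Unc45b, a chaperone gene of muscle myosin, had 0.0010 in the authors' deposited table. The direct neighbours of Slfn4 among the members, Slfn1 and Slfn3, had -0.22 and 0.22 in the authors' deposited table. Slfn4 was picked for its extreme value, so nothing is read from its distance to them.

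**Figure D3:**
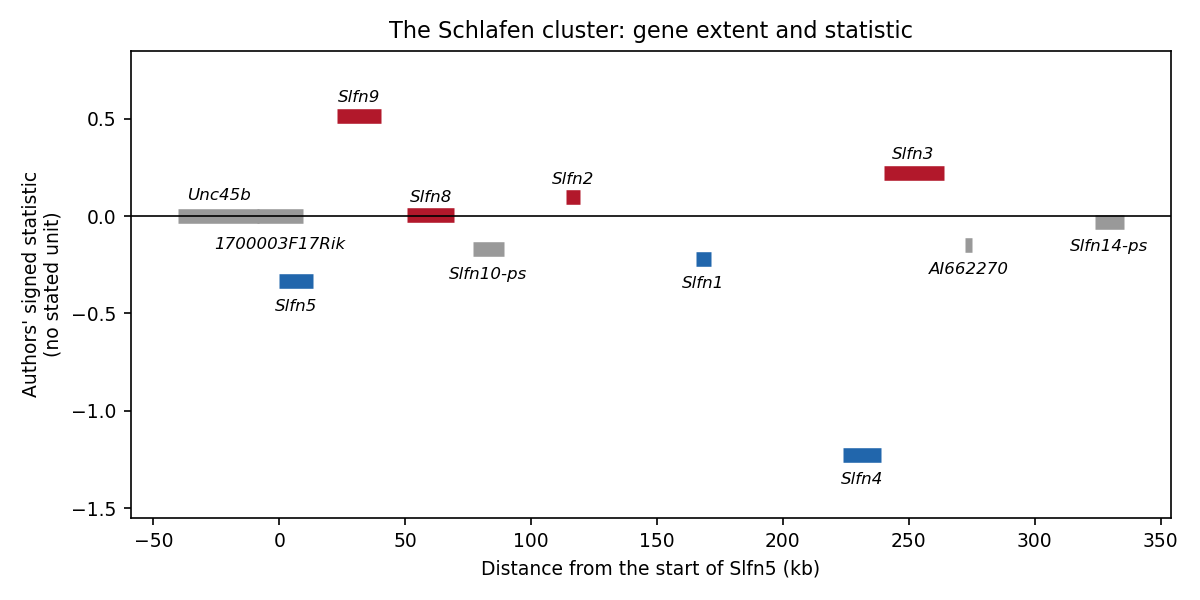
Each gene of the cluster drawn to scale along the chromosome (x axis, distance from the start of Slfn5 in kb) at the height of the authors' signed statistic (y axis, no stated unit). Members are blue where negative and red where positive, and other genes are grey. Slfn4, whose value picked the family, is at -1.23, and Slfn3 next to it is at 0.22.

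As a family the 7 genes had no common side. The statistic was below 0 for 3 members and above 0 for 4 in the authors' deposited table, where 29.6% of all genes are negative, 40.4% are positive and 30% are exactly 0. All 7 had a value other than 0, and no filter on low values was applied. The median of the members was 0.0053, beside 0 for all genes, computed from the authors' deposited table. The mean of the members was -0.13, of the opposite sign, and without Slfn4 it was 0.047. In size, 2 of the 7 reached 0.5, as did 4.76% of all genes, and 1 of these is Slfn4, on which the family was picked.

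Other interferon-stimulated genes leaned to the negative side. Of 40 listed genes, 33 lay below 0 and 7 above it, where 29.6% and 40.4% of all genes lie. This list, like the others, was chosen with earlier results of these data known, so those shares are background only. The median of the listed genes was -0.18, computed from the authors' deposited table. Among them 6 reached -0.5 in the authors' deposited table, with 0.988% of all genes as background. These were Ms4a4c, a membrane protein gene of the Ms4a family, at -0.73, the antiviral genes Rsad2 and Oasl1 at -0.72 and -0.69, the transcription factor gene Irf7 at -0.62, the DNA-sensor family gene Ifi204 at -0.62 and the ubiquitin-like gene Isg15 at -0.52 in the authors' deposited table. Slfn4, picked for its extreme value, is not set against them. Slfn5 had 7 of the 40 below it and Slfn1 had 16 below it. Slfn9 lay above all 40, and Slfn3 above 39.

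The ligands, receptors and signalling genes of interferon were counted in the same way. Of 10 interferon ligand genes, 9 had a statistic of exactly 0, as did 30% of all genes, so they show no side, and the keratinocyte interferon gene Ifnk had 0.03 in the authors' deposited table. Of 19 receptor and signalling genes, 13 lay above 0 and 6 below it, where 40.4% and 29.6% of all genes lie. The median of the 19 was 0.13, computed from the authors' deposited table. The kinase gene Jak2 had 0.60, the feedback inhibitor gene Socs3 0.54, the interferon-gamma receptor gene Ifngr1 0.43 and the transcription factor gene Irf1 0.40 in the authors' deposited table. Usp18, which dampens signalling of the type I receptor, had -0.30 in the authors' deposited table.

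Lists related to the Schlafen genes by induction or by function were also counted. Of 13 guanylate-binding protein and immunity-related GTPase genes, another interferon-induced defence family, 8 were negative and 5 positive in the authors' deposited table. Of all genes, 29.6% are negative and 40.4% positive. In size, 0 of the 13 reached 0.5, where 4.76% of all genes stand, and nothing is read from that count. Gbp5, which promotes inflammasome assembly, had the largest value at 0.47, followed by Gbp9 at -0.29, in the authors' deposited table. The 8 genes of translation and transfer RNA control split into 4 negative and 4 positive, between -0.27 and 0.11 in the authors' deposited table. The lowest was Ang, the gene of angiogenin, the ribonuclease from which Slfn2 shields transfer RNA in mouse T cells.

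**Figure D4:**
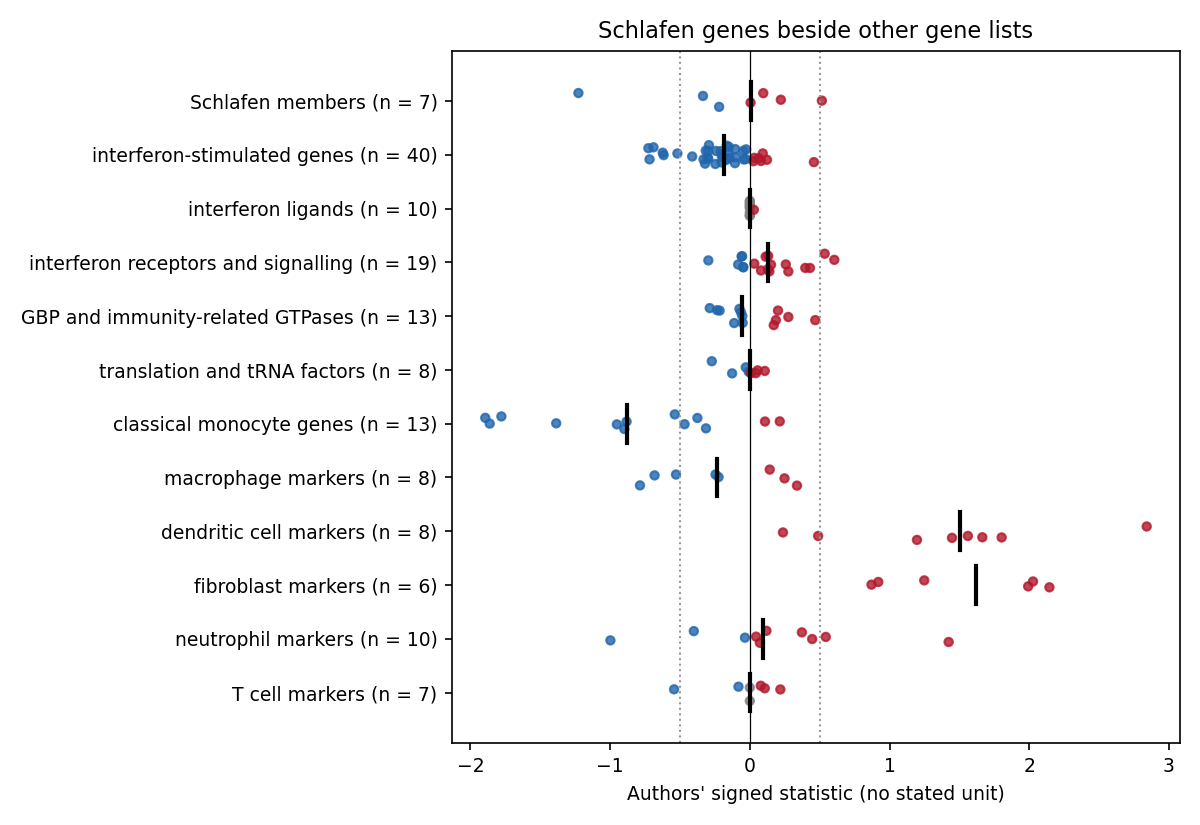
The authors' signed statistic (x axis, no stated unit) of each gene of the Schlafen family and of the other lists (rows, with the number of genes measured), in blue where negative, red where positive and grey at 0. Black bars are medians and dotted lines mark -0.5 and 0.5. The medians run from -0.88 for classical monocyte genes to 1.62 for fibroblast markers.

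Markers of several cell types were also counted on each side of 0. The side of Slfn4 was fixed by the way the family was picked. The lists were also chosen with earlier results of these data known, so the shares of all genes beside them are background only. On the side of Slfn4, 11 of 13 classical monocyte genes lay below 0 and 8 at or below -0.5, and their median was -0.88, computed from the authors' deposited table, beside 29.6% and 0.988% of all genes past these bounds. The 13 include Ly6c2, which defines that side, and Cd177, which is also a surface protein of granulocytes. The 2 above 0 were Ccr2 at 0.21 and S100a4 at 0.11. Macrophage markers were negative for 5 of 8, with a median of -0.23. On the side of Slfn9 and Slfn3, where 40.4% of all genes stand, lay all 8 dendritic cell markers and all 6 fibroblast markers. Their medians were 1.50 and 1.62, computed from the authors' deposited table. Neutrophil markers held 7 positive and 3 negative genes, with a median of 0.10, and T cell markers held 3 positive, 2 negative and 2 at exactly 0. Beside these lists, 40.4% of all genes are positive, 29.6% negative and 30% exactly 0. The part of these cell types in the values of the Schlafen genes was not tested, and marker levels per library were not analysed here. In bulk samples, fewer cells of a type and less RNA per cell cannot be told apart.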

How the data were processed

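RNA from 1 library of Ly6Chi and 1 library of Ly6Clo macrophages was sequenced. CASAVA 1.8.2 and TopHat were used with mm10, per the submitters' processing notes. For the counting program, annotation, read length and strand handling, no source used here gives a name or setting. The authors deposited 1 table with a signed score per gene, headed statistic, and its ranking, per the file headers. The rank matched the size of the statistic within 1e-06 for 23284 of 23284 genes. The headings of 2 other columns, with values of single libraries, match no sample label, and these columns were not used, so no depth or level is given.

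Members and lists were chosen with earlier results of these data known. Genes named are the members, the genes of the cluster and the 2 beyond each end, the 3 before and after Slfn4 by rank, and up to 6 members of each list with the largest size. Symbols were matched to RefSeq GRCm38.p6 (20723 by current symbol, 2292 by a synonym, 269 not matched). A size of 0.5 in the statistic was used for counting and has no error rate. Coding sequences and transcripts came from GENCODE on GRCm38. Coding sequences and promoters were aligned globally with Biopython 1.88. Transcript stretches of 50 and 100 bases were compared over all annotated transcripts of the cluster's Schlafen genes. Counting, motif search and stretch comparison were tested on simulated data. Alternatives were other thresholds, the mean, and other gene or window choices. Python 3.11.15, NumPy 2.4.6, pandas 2.3.3 and Matplotlib 3.10.9 were used.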

Additional observations from a re-analysis of the deposited data

How the results depend on the processing

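No paired analysis was possible because there is 1 library of each kind, and for the same reason none could be left out. Among Schlafen members, 1 lay at or below -0.5, 2 at or below -0.25 and 1 at or below -1. Each of these counts includes Slfn4, on which the family was picked. Their median of 0.0053 became -0.13 as a mean and, with Slfn10-ps and Slfn14-ps added after seeing the data, -0.028. The mean of the members other than Slfn4, also chosen after seeing the data, was 0.047, and the median lies at Slfn8, close to 0. Of the interferon-stimulated genes, 6 lay at or below -0.5, 14 at or below -0.25 and 0 at or below -1. Their median of -0.18 stayed negative as a mean (-0.21), with genes of size 0.1 or more only (-0.24) and, chosen after seeing the data, without the genes of the signalling list (-0.20). The share of all genes at or below -0.5, 0.988%, was 1.41% when genes at exactly 0 were left out. The count of members with an ISRE core, 3, was also 3 in the bases before the start alone. Without replicates or library depths, no error can be given for any statistic.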
